A study of Rattus norvegicus with 40 samples.

Results

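The adrenal glands of male rats given the lowest dose of an organophosphate ester mixture, named 30x in the labels, were compared with those of male controls. All libraries labelled male and 30x (5) or male and Control (5) were taken, 10 of the 40 libraries of the series. The animals were adult Sprague Dawley rats, an outbred laboratory stock, and each library came from total RNA of adrenal gland. The control group carries no named agent in the labels, and no transgene or other allele is given for either group. The labels give no age in weeks, no route, no length of exposure, no amount behind the multiple and no vehicle. They call the replicates biological and do not say whether a library held 1 gland, both glands or a pool.

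The adrenal gland holds a cortex, which makes glucocorticoids, mineralocorticoids and other steroids from cholesterol, and a medulla, whose chromaffin cells make catecholamines. Organophosphate esters are used as flame retardants and plasticizers and are found in household dust. The question behind the comparison, as the title of the series puts it in other words, is whether an exposure close to that met in the environment alters this gland. Genes are given by Ensembl identifier, because 0 identifiers matched the name table used here, and at most 2 genes a direction are named. The roles of these genes, and markers of cortex, medulla, fat or immune cells, were therefore not analysed here. In whole glands, fewer cells of a type and less RNA per cell cannot be told apart.

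Correlations between libraries covered much the same range within and between the groups. The reads recovered from the deposited values ranged from 16323275 to 21032832 in controls (median 19270254) and from 15169843 to 23838651 at 30x (median 16193482). Pearson correlations of log2(FPKM + 1), where FPKM are fragments per kilobase of gene scaled by the authors, were 0.946 to 0.976 between controls (median 0.958), 0.956 to 0.971 between 30x libraries (median 0.966), and 0.948 to 0.972 between the groups (median 0.959). Male control replicate 2 stood apart from the other controls. It lay far from the other 4 libraries of its group, by Dixon's criterion for 5 values, in 636 of 12401 genes (5.13%), against 56 to 155 genes (0.452% to 1.25%) for each of the other 9 libraries. It also had the fewest genes at 1 FPKM or more in these 10 libraries, 12204 against 12354 to 12582. Some results below are also given without this library, and the others include it. As a check of the labels, 5 genes found in males alone and 2 found in females alone were picked from the 30 other libraries. In these 10 libraries the male genes were at 2.03 FPKM or more and the female genes at 0 FPKM.

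**Figure D1:**
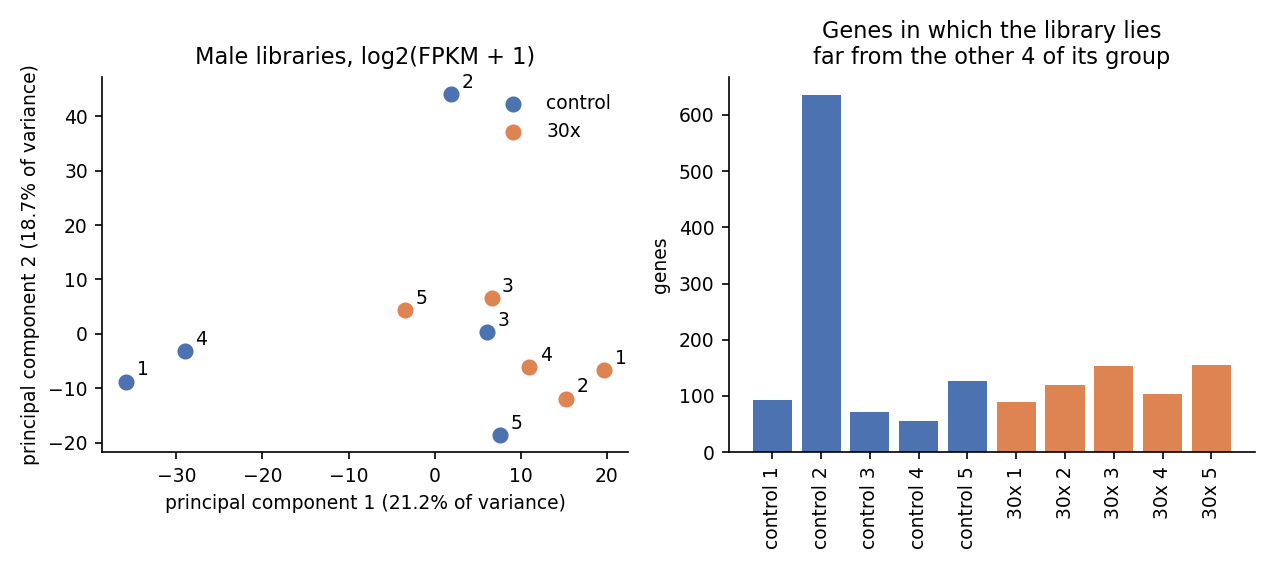
Left, the first 2 principal components of log2(FPKM + 1) for the 5 control and 5 30x libraries of males, numbered by replicate, with the share of variance on each axis. Control replicates 1 and 4 lie at the low end of component 1, control replicate 2 lies alone at the top of component 2, and 30x replicates 1, 2 and 4 lie beyond every control at the high end of component 1. Right, the number of genes, of 12401, in which each library lies far from the other 4 of its group, which is 636 for control replicate 2 and 56 to 155 for the others.

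At 30x, 1 gene was called lower and 0 were called higher. A gene was tested when 5 or more of the 10 libraries held it at 1 FPKM or above, and of 12401 such genes this 1 was 0.00806% (limma on log2(FPKM + 1), Benjamini-Hochberg adjusted p under 0.05). Most differences were small: the median size was 0.12 on the log2(FPKM + 1) scale, the 90th percentile 0.37 and the 99th percentile 0.90, and the median signed difference was 0.0006. The extreme differences were 2.05 and -2.02, both in genes whose groups overlapped. Genes at an unadjusted p under 0.05 numbered 958 (7.73%), 403 of them higher (3.25%) and 555 lower (4.48%) at 30x. Without control replicate 2 they numbered 1201 of 12285.

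ENSRNOG00000029651, the called gene, has a length of 2343 bp as recovered from the values. In the 5 controls, in the order of replicates 1 to 5, it was at 57.3, 59.0, 67.6, 55.4 and 61.5 FPKM. At 30x it was at 34.4, 37.1, 37.2, 36.6 and 37.2 FPKM. Every 30x library lay below every control, with a gap of 18.1 FPKM between the groups, and the 30x libraries lay close together. The mean at 30x was 0.607 times the control mean, a log2 difference of -0.70 (SE 0.07, 95% interval -0.86 to -0.54, limma adjusted p = 0.0124, n = 5 and 5). The difference divided by the pooled SD within the groups was -8.34, while the median size of this ratio over all genes was 0.517. The gene was picked by its p, which rests on much the same ratio, so this contrast is no separate support. Each library held 1291 to 2979 reads of this gene, and the SD expected from counting these reads was 0.036 at 30x and 0.027 in controls on the log2 scale. The SD between libraries was 0.05 at 30x and 0.11 in controls. Among the genes with lower values at 30x it ranked 192nd by size of the difference, and among all genes it had the smallest p.

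The call on this gene was lost with 2 other scalings and with 5 of the 10 libraries left out in turn. A block by replicate number (limma adjusted p = 0.604) or by runs of animal numbers (limma adjusted p = 0.287) also ended it. The call was kept without control replicate 1, 2, 3 or 4 or 30x replicate 5 (limma adjusted p 0.0259 to 0.0492). It was lost without control replicate 5 (0.0675), 30x replicate 1 (0.0768), replicate 2 (0.0669), replicate 3 (0.0608) or replicate 4 (0.0719). In these 10 fits the log2 difference stayed between -0.73 and -0.66. With quantile normalization it was -0.66 (limma adjusted p = 0.0729) and with scaling to the FPKM sum of each library -0.66 (limma adjusted p = 0.274).

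At the higher doses, which share the 5 controls with this comparison, the same gene was at 32.7 to 46.6 FPKM (1000x) and 41.3 to 53.9 FPKM (30000x). Every dosed male library was thus below the lowest control, 55.4 FPKM. The gene was chosen against these same 5 controls, so the higher doses give no separate support for a fall. The means at 30x, 1000x and 30000x were 36.5, 38.7 and 48.7 FPKM, and neighbouring doses overlapped. In females, which share no library with the males, controls were at 15.6 to 35.9 FPKM and 30x libraries at 26.7 to 40.1 FPKM. The female groups overlapped, and the female difference was 0.42 (SE 0.16, limma adjusted p = 0.421). The male difference minus the female one was -1.12 (SE 0.23), which did not pass over all genes (limma adjusted p = 0.198).

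**Figure D2:**
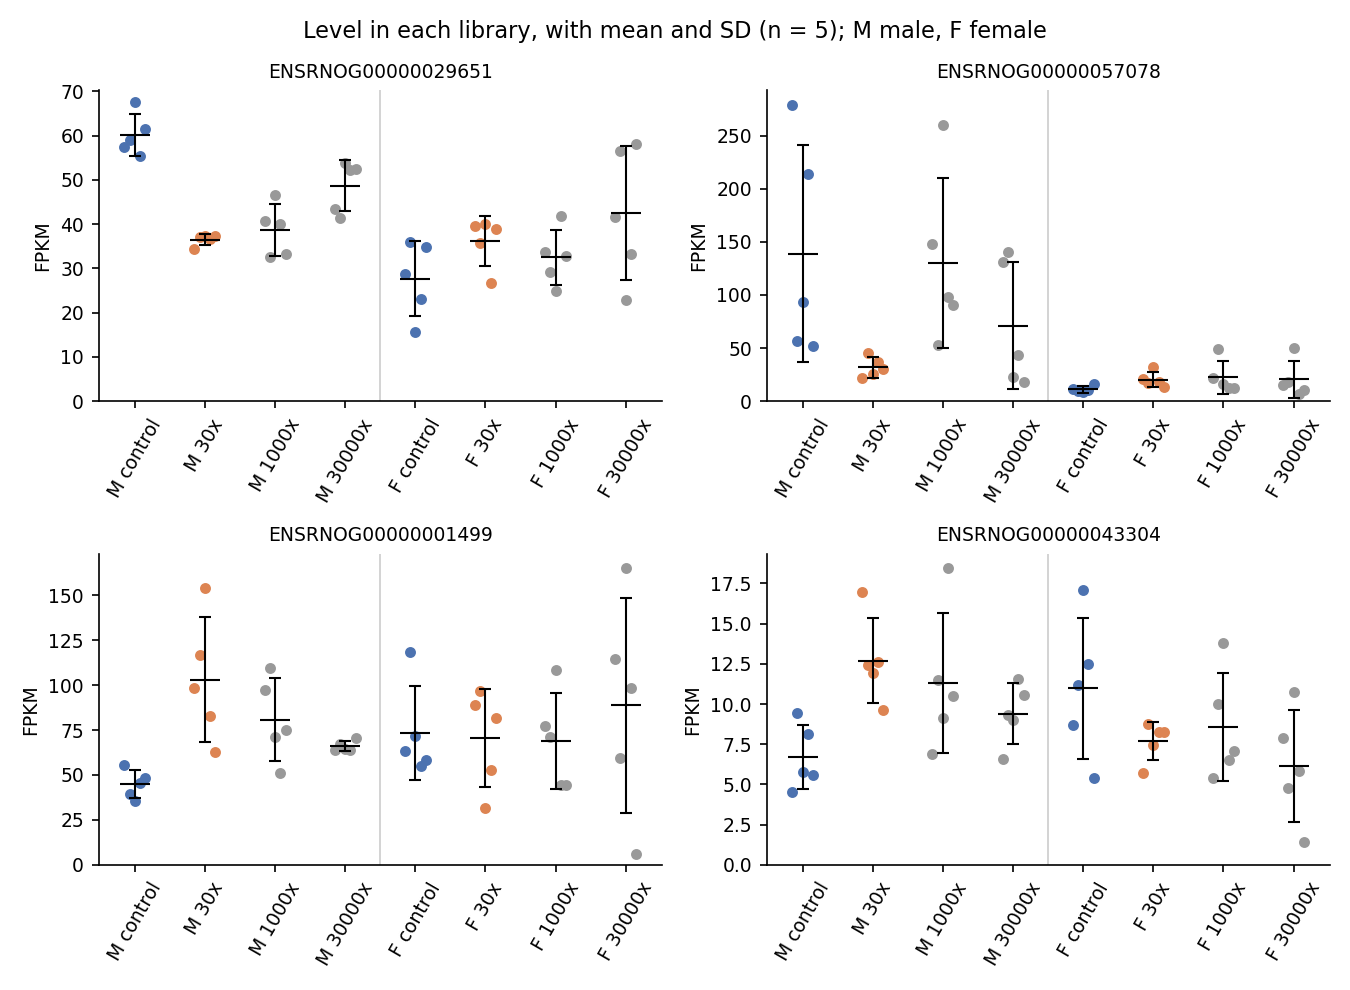
FPKM of the 4 named genes in all 40 libraries, by sex and dose, with points for libraries and bars for the mean and SD (n = 5). For ENSRNOG00000029651 the male controls lie above all dosed males, and for ENSRNOG00000057078 the male controls range from 51.6 to 278.6 FPKM while the 30x males lie between 21.5 and 45.3 FPKM.

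The other 3 named genes did not pass the adjustment. They were taken from genes whose groups did not overlap and that reached a mean of 5 FPKM in 1 group or both. Among such genes they have the largest differences of their direction. At most 2 genes were named a direction, the called gene included. Of the 3, ENSRNOG00000057078 (1720 bp) was the one lower at 30x. Its control values were 278.6, 56.4, 93.4, 213.9 and 51.6 FPKM, and its 30x values were 21.5, 45.3, 25.2, 37.2 and 30.0 FPKM. The groups were apart by 6.28 FPKM, and the controls spread over a wide range, with replicates 1 and 4 far above the other 3. Replicates 1 and 4 are also the controls at the low end of the first principal component. Whether the gene's level is part of what sets them apart was not tested. The log2 difference was -1.81 (SE 0.45, limma adjusted p = 0.411), which is -2.18 pooled SDs, with an SD of 1.10 in controls and 0.42 at 30x. At 1000x the gene was at 53.1 to 259.7 FPKM, above every 30x library, and at 30000x it was at 18.02 to 140.4 FPKM, overlapping both. Female controls were at 8.28 to 16.6 FPKM, below every male 30x library, and female 30x libraries were at 13.0 to 31.97 FPKM, overlapping the male 30x libraries. The female difference was 0.76 (SE 0.38, limma adjusted p = 0.462), and the male difference minus the female one was -2.57 (SE 0.53, limma adjusted p = 0.198).

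ENSRNOG00000001499 (570 bp) had the largest difference in the other direction among separated genes with a mean of 5 FPKM or more in a group. Its control values were 55.8, 39.4, 35.4, 45.7 and 48.2 FPKM, and its 30x values were 98.2, 117, 154, 82.6 and 63.0 FPKM. All 30x libraries lay above all controls by at least 7.25 FPKM, and here the 30x group spread more, with a log2 SD of 0.48 against 0.25. The mean at 30x was 2.29 times that of controls, a log2 difference of 1.13 (SE 0.21, limma adjusted p = 0.274). At 1000x the gene was at 51.1 to 109 FPKM, and at 30000x at 63.8 to 70.5 FPKM. Female controls were at 54.9 to 118 FPKM and female 30x libraries at 31.6 to 96.9 FPKM, with a difference of -0.11 (SE 0.28, limma adjusted p = 0.893). The male difference minus the female one was 1.24 (SE 0.40, limma adjusted p = 0.322).

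ENSRNOG00000043304 (3138 bp) was at 4.55, 9.42, 5.79, 8.14 and 5.60 FPKM in controls and at 16.9, 12.4, 11.9, 12.6 and 9.61 FPKM at 30x. The groups did not overlap, but the lowest 30x library and the highest control were only 0.189 FPKM apart. The mean at 30x was 1.90 times that of controls, a log2 difference of 0.85 (SE 0.19, limma adjusted p = 0.35). Female controls were at 5.37 to 17.1 FPKM and female 30x libraries at 5.71 to 8.76 FPKM, a difference of -0.39 (SE 0.23, limma adjusted p = 0.513). The male difference minus the female one was 1.24 (SE 0.32, limma adjusted p = 0.311). The female differences of all 4 named genes thus had the opposite sign to the male ones, and none of them passed in females. Of all genes tested in males, 49.3% had a higher and 50.6% a lower female mean at 30x. The 4 genes were chosen with male control replicate 2 included.

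Over all genes, the 5 libraries at 30x lay above all 5 controls in 72 genes (0.581%) and below them in 116 genes (0.935%). Groups of 5 with no true difference would also be separated in some genes. That share was not computed here, so these counts are not counts of genes that responded. The median difference was 0.36 for the higher genes and -0.39 for the lower ones. A difference of at least 1 was found in 4 of the 72 and 8 of the 116, and a difference under 0.5 in 54 and 78. Of these separated genes, 66 and 110 were at an unadjusted p under 0.05, and only the called gene passed the adjusted threshold. Most of the larger differences were between groups that overlapped: of 625 genes with a difference of at least 0.5 (229 higher, 396 lower), the groups were separated in 56, and of 84 genes with a difference of at least 1 (24 higher, 60 lower) in 12. The lower genes were more abundant than the genes tested, with a median control mean of 19.5 FPKM against 10.4 FPKM, and the higher genes less so, at 7.40 FPKM. Among 711 genes of 100 FPKM or more, 9 were separated as lower (1.27%, against 0.935% of all genes) and 0 as higher (against 0.581%). The median length was 1962 bp for all 116 lower and 2948 bp for all 72 higher genes, against 2189 bp for all genes tested. These levels and lengths are of the genes separated as deposited and were not computed with other scalings.

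The split of the separated genes by direction depended on the scaling. As deposited, 38.3% of separated genes were higher at 30x, and with quantile normalization 42.3% (80 higher and 109 lower). After each library was scaled to the same FPKM sum, 58.8% were higher (77 higher and 54 lower), and 37 of the 72 and 42 of the 116 were still separated. That scaling moved the median difference of all genes by 0.037 on the log2 scale. The counts of separated genes rose when a library was left out: without control replicate 2 they were 160 and 244, and without any other single library 103 to 153 and 146 to 229, where a group of 4 is separated more easily than a group of 5.

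**Figure D3:**
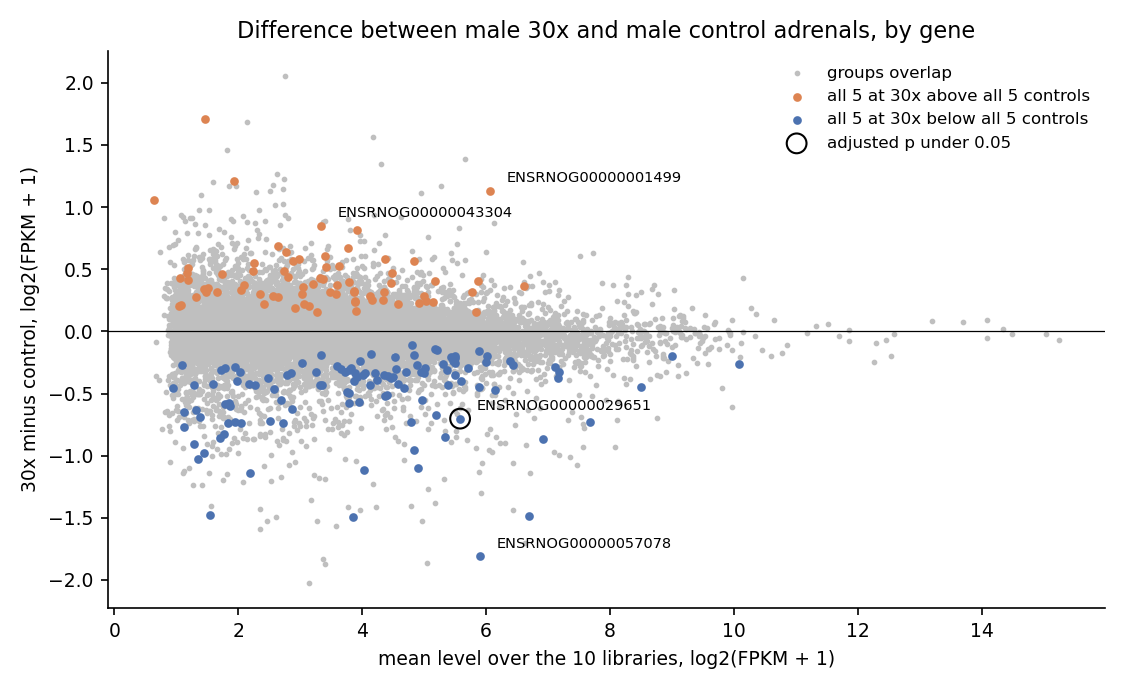
Difference between male 30x and control libraries against the mean level of each of 12401 genes, both on the log2(FPKM + 1) scale. Orange and blue points are the 72 and 116 genes whose groups do not overlap, the black ring marks the gene with an adjusted p under 0.05, and most of the largest differences are grey, which means that their groups overlap.

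For most genes the difference was smaller than the spread between libraries of a group. The median SD was 0.235 in controls and 0.20 at 30x on the log2(FPKM + 1) scale, and the SD was larger in controls for 59.4% of genes. Without control replicate 2 the median SD of the other 4 controls was 0.186 and it was larger than at 30x for 44.5% of genes. Without control replicate 1, 3, 4 or 5 these were 0.228 to 0.243 and 56.2% to 60.2%. A difference of at least 1 pooled SD was found in 2585 genes (20.8%), of at least 2 in 286 genes (2.31%) and of at least 3 in 43 genes (0.347%). These SDs are of single libraries, and a difference between group means varies less than single libraries do. Some genes would reach these bounds with no true difference, and that share was not computed.

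The share of this spread that counting of reads gives was small. For 1311 genes under 2 FPKM, with a median of 55 reads per library, counting gave 16.4% of the variance within groups (median over genes). For 3163 genes of 20 to 100 FPKM, with a median of 1298 reads, it gave 4.92%, and for 711 genes of 100 FPKM or more, with 4767 reads, 1.06%. In these 3 classes the median size of the difference was 0.15, 0.10 and 0.09, below the median SD of both groups.

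**Figure D4:**
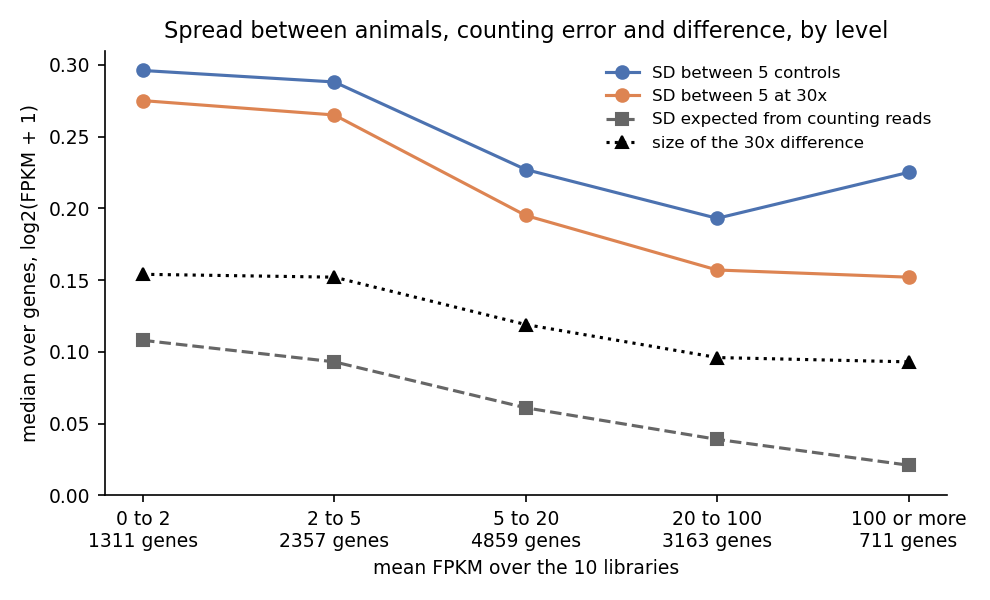
Median over genes, by mean FPKM class, of the SD between the 5 controls, the SD between the 5 30x libraries, the SD expected from counting reads, and the size of the 30x difference, all on the log2(FPKM + 1) scale. The difference lies between counting error and the spread between libraries of a group in every class.

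The precision sets what could be seen. The median SE of a difference was 0.145 on the log2 scale. The 95% interval lay within a difference of 1, a 2-fold change for well expressed genes, in 91.5% of the 12401 genes and in 93.7% of the 8733 genes that averaged 5 FPKM or more. It lay within 0.58, a 1.5-fold change, in 69.6% and 76.8%. Because 1 is added before the log, a difference near 0 FPKM is compressed, and an interval inside these bounds can there hold a larger fold.

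Whether the difference at 30x was the same in males and females was tested for each of 13222 genes as the male difference minus the female one. In this test 0 genes passed (limma, adjusted p under 0.05), and 1678 (12.7%) were at an unadjusted p under 0.05. Voom on the recovered reads also called 0, with 1668 at an unadjusted p under 0.05. In the limma fit the number at an unadjusted p under 0.05 depended on the setting. It was 2912 with scaling to the FPKM sum, still with 0 calls. That scaling put the median female difference over 12401 genes at -0.29, against -0.003 as deposited. Whether this shift gave the larger number was not tested. With 1 library left out the number at an unadjusted p under 0.05 was 1107 to 2512. It was 1107 without female control replicate 3 and 1115 without female 30x replicate 1. With 1 library left out the number called was 0, except for 1 gene without female 30x replicate 5. As a description with no test, the genes separated in males were read in the 10 female libraries. Of the 72 genes higher at 30x in males, 56 had a lower mean at 30x in females, where 50.6% of all genes tested did. Of the 116 lower genes, 88 had a higher mean in females, where 49.3% of all genes did. The median female difference was -0.12 for the first set, 0.14 for the second and -0.003 for all genes. With any 1 female library left out the counts were 43 to 58 and 79 to 96.

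These shares depended on male control replicate 2. When the separated genes were chosen without that library, 81 of 161 genes higher in males had a lower female mean and 142 of 246 lower genes had a higher one, with median female differences of -0.01 and 0.05. Across the 12401 genes, Pearson's r between the male and the female difference was -0.28 and Spearman's rho -0.29, and without this library they were -0.13 and -0.09. Without any other single library of either sex, r was -0.33 to -0.21. The genes are not independent replicates, since they are measured in the same 20 libraries and scaled together.

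**Figure D5:**
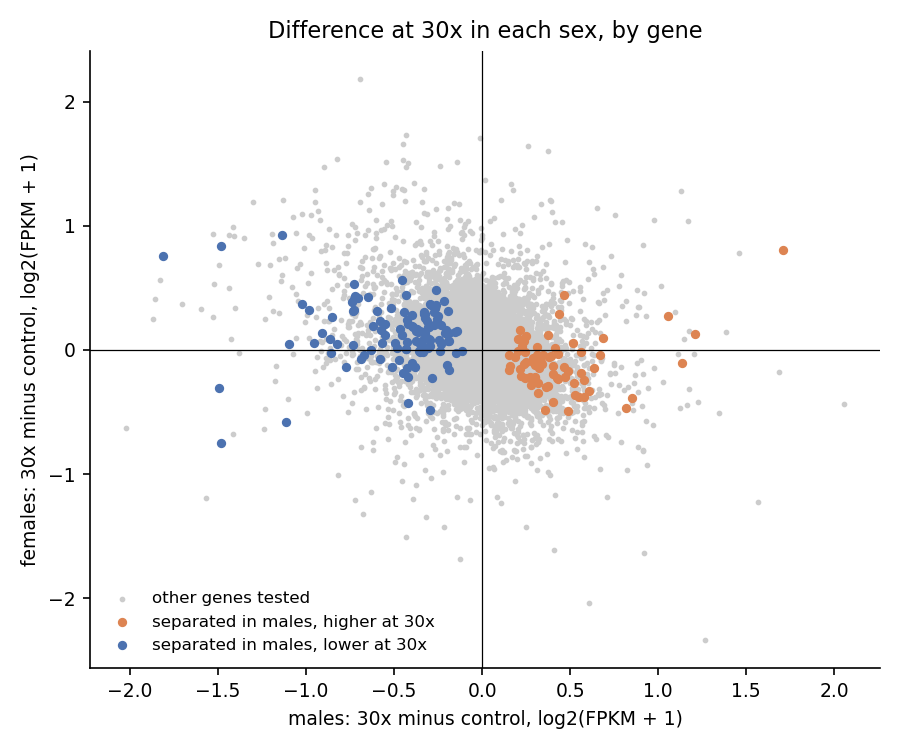
Difference between 30x and control in females against that in males for each of 12401 genes, both on the log2(FPKM + 1) scale. Blue and orange points are genes separated in males, of which 88 of 116 lie above 0 and 56 of 72 lie below 0 on the female axis; these counts include male control replicate 2.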

How the data were processed

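Adrenal RNA was isolated on Qiagen columns, and libraries were clustered for Illumina paired-end reads, per the labels' protocols. HISAT2 2.0.5 and featureCounts 1.5.0-p3 were used, per the submitters' processing notes. Genome build, annotation and strandedness are not given in the sources used, so overlapping and antisense genes cannot be separated. The authors deposited FPKM values for 32545 genes per library. Whole reads were recovered by solving for library scales and gene lengths: over 20717 genes listed above 0 in 3 or more libraries, 100% of 680244 values lay within 0.05 of a whole read. The scales equal median-of-ratios size factors, so the deposited FPKM are not scaled to each library's own total.

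Groups came from the titles. A gene entered a fit when 5 or more of its libraries held 1 FPKM or above. The log2(FPKM + 1) values were fitted by limma (version 3.58.1, under R 4.3.3), two-sided, with a trended prior and Benjamini-Hochberg adjustment. The male comparison used its 10 libraries, and the difference between the sexes 20. A pair of groups was called separated when they did not overlap. The SD expected from counting was computed from the recovered reads and covers counting error only. Reads of the 20 pairs of libraries within a group differed by 17.1 to 85.2 chi-square per degree of freedom, so no library was counted as a copy of another. P-values measure the spread between these samples.

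Named genes were the called genes, then separated genes that averaged 5 FPKM or more in a group, by size of the difference, at most 2 a direction. The 25 lists of pathway and marker genes were not used, since 0 of the identifiers matched the 47357 rows of the name table. The comparison, lists and rules were chosen with earlier results of these data known. The reading of separated genes in females, and the spread without single controls, were added after seeing the data. The fits were also run on simulated reads with known changes, and the outcome is not given here. Those reads were drawn separately for each gene, with the same dispersion in every group and no outlying library. Recovery and summaries used Python 3.11.15 with numpy 2.4.6 and pandas 2.3.3, and figures used matplotlib 3.10.9.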

Additional observations from a re-analysis of the deposited data

Results flagged for a closer look

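Dixon's criterion was applied to 32 sets of 5 values and picked out 4, where chance picks about 1 in 20. ENSRNOG00000029651 at 30x in males had its lowest value, 34.4 FPKM, apart from 4 values between 36.6 and 37.2 FPKM. ENSRNOG00000001499 in female controls had its highest value at 118 FPKM. Male 30x replicate 3 had the most recovered reads of its group, 23838651, where the other 4 held 15169843 to 16888392. Male 30x replicate 5 had the lowest median correlation with the other libraries of its group, 0.96, where the other 4 were at 0.966 to 0.967. No cause of these values was tested.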

How the results depend on the processing

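For the male comparison the count of 1 called gene was the same with a pseudocount of 0.1, no filter, a mean of at least 5 FPKM, voom on the recovered reads and all 20 male libraries. It was 0 with quantile normalization (998 at an unadjusted p under 0.05), 0 with scaling to the FPKM sum (754), 0 with the replicate block from the titles (744) and 0 with a block by runs of consecutive animal numbers in the column names (856). It was 2 with library weights, both lower, and 2 with a prior without trend, 1 of them higher. Leaving out 1 library gave 0 to 2. The separated genes numbered 54 lower with scaling to the FPKM sum in place of 116, and 103 to 160 higher and 146 to 244 lower with 1 library left out, where fewer libraries separate more easily. The cause of the other changes was not tested. For the difference between the sexes the count was 0 in the 10 other settings and 0 to 1 with 1 library left out.

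Same-numbered control and 30x libraries had correlations of -0.155 to -0.049 of their deviations from the group means. None of the 5 controls correlated best with its own number. Libraries in the same run of animal numbers, where each male library is of a different dose, had -0.108 to 0.157. Deviations from the mean of 5 libraries balance out within a group, so these correlations cannot exclude a pairing. The labels do not say whether either number marks pairs. Under the replicate block ENSRNOG00000029651 kept its log2 difference of -0.70 (limma adjusted p = 0.604), and under the animal-number block as well (limma adjusted p = 0.287), so both blocks end its call. In the male comparison the 4 named genes kept their direction over all settings and left-out libraries. Their groups do not overlap, so leaving out a library could not have changed it, and this is no separate support. The depth limited genes under 2 FPKM most.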
